A study of Mus musculus with 18 samples.

Results

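The Hox genes encode homeodomain transcription factors that set positional identity along the body axis, and in mammals they lie in 4 clusters, Hoxa, Hoxb, Hoxc and Hoxd. Within a cluster the genes run in the order of their paralogue numbers, and the chromatin of a cluster is commonly divided at CTCF sites that hold cohesin. RAD21 is a subunit of the cohesin ring that forms chromatin loops, and NIPBL is the factor that loads cohesin and drives loop extrusion. CTCF is the DNA-binding protein at which extruding cohesin tends to stop. Several Hox genes, such as Hoxa7 and Hoxa9, are known for activity in blood progenitors, whereas the paralogues numbered 13 act in limb, hindgut and genital development.

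The members were the genes whose symbols start with Hoxa, Hoxb, Hoxc or Hoxd followed by a number, 41 in the mm9 annotation. Of these, 39 encode proteins (11 in Hoxa, 10 in Hoxb, 9 in Hoxc and 9 in Hoxd), and 2 are the antisense genes Hoxa11as and Hoxb3os. All protein-coding genes of the annotation, 22208 in number, served as the comparison. ChIP-seq peak lists of RAD21 and NIPBL came from mouse pro-B cells immortalised by v-Abl, a viral tyrosine kinase. Every group was JH-del, lacked RAG2, carried an Emu-Bcl2 transgene and had dCas9, the form of Cas9 that binds DNA and does not cut it. All were kept in 3 uM STI-571, an Abl inhibitor, for 4 days. RAD21 was mapped in dCas9 control cells (2 libraries), in dCas9 block cells, in which a guide labelled Sg1 was present (2 libraries), and in Ig2b wild type (3 libraries) and Ig2b-del/del (3 libraries) cells. NIPBL was mapped in dCas9 control (2 libraries) and dCas9 block (2 libraries) cells. Nothing in the labels says that replicates were separate cultures or clones, so the p-values cover the spread among these libraries alone, which may be technical.

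The 14 lists held 44783 to 123573 peaks covering 11.6 to 34.4 Mb, and read depth is unknown. Peak names show a control library for the dCas9 experiments and none for the Ig2b experiment, so levels were not compared between them. Peak names of the RAD21 dCas9 lists differed in style between replicate numbers 1 and 2, so the block comparison of RAD21 is also given within each number. RAD21 peaks lay within 5 kb of the start in all 10 libraries at 7 of 8 pro-B marker genes, against 1 of 7 T cell, 1 of 5 myeloid and 2 of 5 erythroid markers and 23.4% of all genes. A peak near a start does not measure expression.

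Peaks were merged into regions across the libraries of a protein, over each cluster from first to last gene plus 50 kb on each side. RAD21 formed 34 regions in the 4 spans, and 13 of them (38.2%) held a peak in all 10 RAD21 libraries, as did 16.5% of the 155581 regions of the genome: 4 at Hoxa, 1 at Hoxb, 3 at Hoxc and 5 at Hoxd. Of the 13, 10 lay within 5 kb of a Hox gene start. Neighbouring Hox starts lay a median of 7124.5 bp (Hoxd) to 13276 bp (Hoxc) apart, so this count does not show a preference for starts. The CTCF core motif, a 12 bp consensus searched on both strands, was found in 4 of them, near Hoxa7, Hoxb8, Hoxd12 and Hoxd3. Across the genome, 48.2% of the 25633 RAD21 regions present in all 10 libraries held it. Those 4 sites are printed because they are the places where a constant RAD21 region and this consensus coincide, 5′ to 3′ on the motif's strand with the core in capitals. The Hoxa7 site lies at chr6:52171799-52171828 (mm9, minus strand, in a UTR of Hoxa7) and is printed short for that reason. The Hoxb8 site lies at chr11:96140232-96140303 (plus strand, intergenic, between Hoxb9 and Hoxb8). The Hoxd12 site lies at chr2:74511205-74511276 (minus strand, intergenic, between Hoxd13 and Hoxd12), and the Hoxd3 site at chr2:74554219-74554290 (plus strand, in an intron of Hoxd3).
Hoxa7 site: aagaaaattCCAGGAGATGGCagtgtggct
Hoxb8 site: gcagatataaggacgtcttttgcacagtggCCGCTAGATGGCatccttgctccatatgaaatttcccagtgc
Hoxd12 site: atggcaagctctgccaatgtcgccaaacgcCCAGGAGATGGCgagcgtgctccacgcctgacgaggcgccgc
Hoxd3 site: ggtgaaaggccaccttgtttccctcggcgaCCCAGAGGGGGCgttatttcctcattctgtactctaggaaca

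The cores of the Hoxa7 and Hoxd12 sites are the same 12 letters, while those of Hoxb8 and Hoxd3 differ from them. Hox genes are transcribed from the minus strand at Hoxa and from the plus strand at the other clusters. The Hoxa7, Hoxb8 and Hoxd3 cores stood on the strand of their Hox genes, and the Hoxd12 core stood on the opposite strand. Of 58 core motifs in the 4 spans, 4 (6.9%) lay in a constant RAD21 region, against 9.78% of the 137527 in the genome. A match is a description of the letters and not of CTCF binding, which was not measured. The other 9 constant regions held no core motif.

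**Figure D1:**
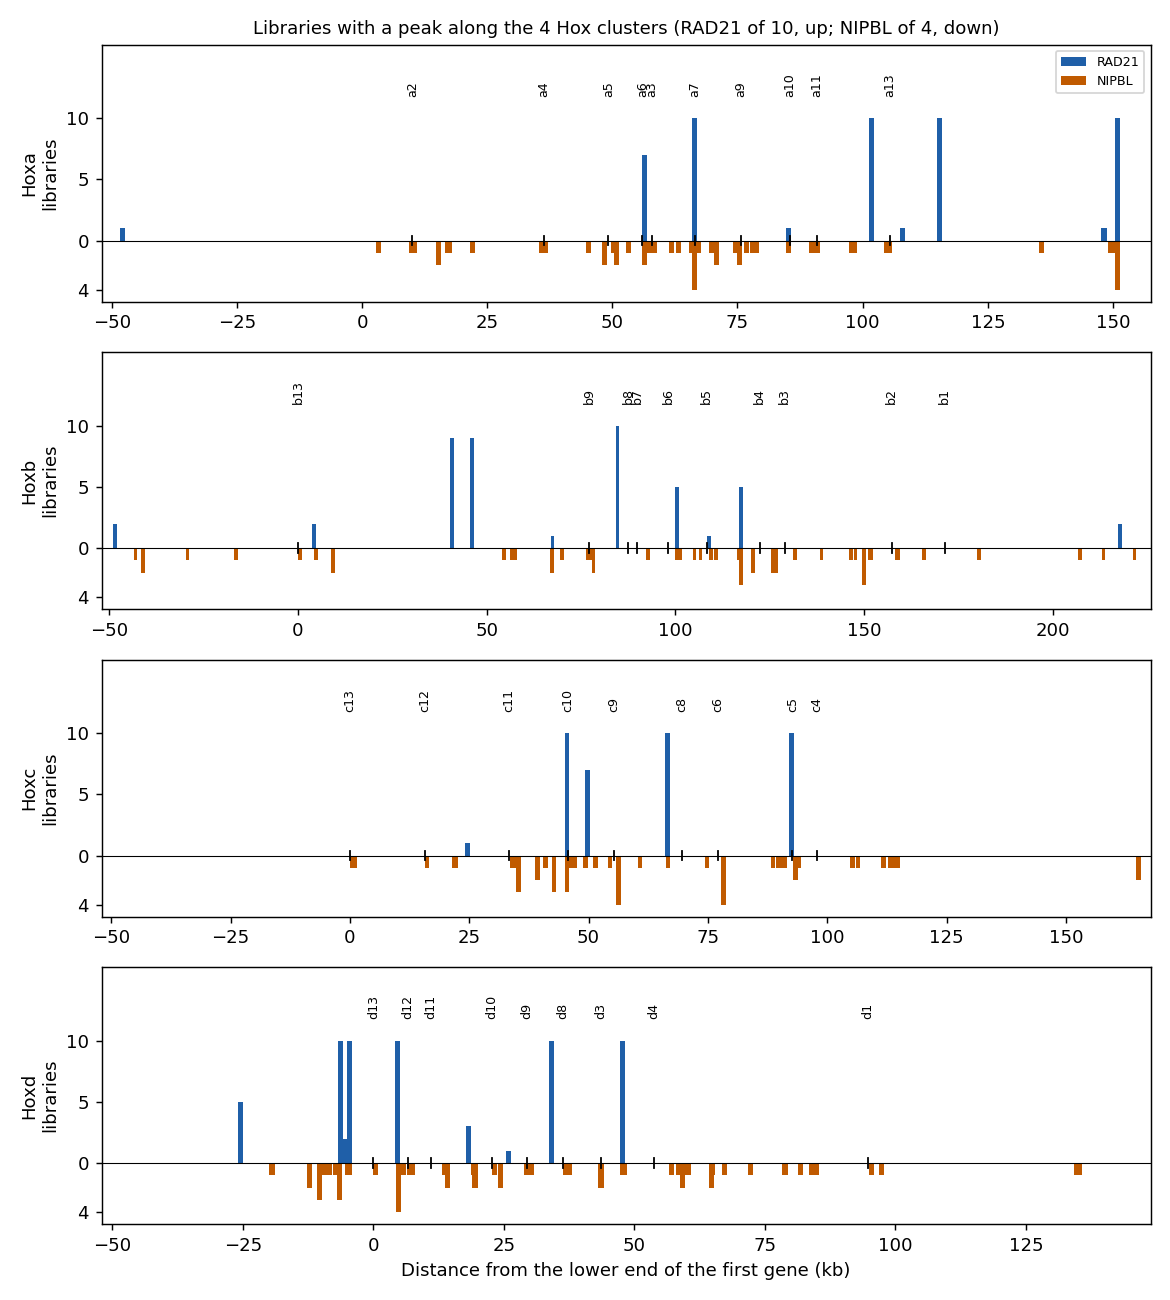
Number of libraries with a peak in each merged region along the 4 clusters, RAD21 upward (of 10) and NIPBL downward (of 4), against distance in kb from the lower end of the first gene; ticks on the zero line mark 38 gene starts, labelled by cluster letter and number. RAD21 bars of full height number 13, while 135 of the 170 NIPBL regions stand in 1 library.

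The constant RAD21 regions lay at particular genes of each cluster, described here by position alone. At Hoxa, 1 region covered the start of Hoxa7, with Hoxa2 to Hoxa6 on one side and Hoxa9 to Hoxa11 on the other. The next lay 3.2 kb from the start of Hoxa13, between Hoxa11 and Hoxa13, and 2 lay beyond Hoxa13, the farther one 6.8 kb from Evx1, a homeobox gene beside the cluster. At Hoxb, the only constant region lay 2.5 kb upstream of Hoxb8, between Hoxb9 and Hoxb8. At Hoxc, regions lay at the start of Hoxc10, between Hoxc9 and Hoxc8, and at the start of Hoxc5. At Hoxd, a pair lay between Evx2 and Hoxd13, and single regions lay between Hoxd13 and Hoxd12, between Hoxd9 and Hoxd8, and between the starts of Hoxd3 and Hoxd4. Hoxb1 to Hoxb7, and Hoxc11 to Hoxc13, had no constant region among them.

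The fold of a peak, the authors' enrichment value, is given here to describe each list, since no common scale was set between lists. The highest mean over the 10 libraries was at Hoxa7, 12.3 ± 3.63 (SD, n = 10), ranging from 6.58 to 19.2. The region between Hoxa11 and Hoxa13 followed at 12.25 ± 2.97, and the region near Evx1 at 11.8 ± 2.46. These 3 means differed by less than their spread over libraries. Further down stood the Hoxc8 region at 10.9 ± 2.95, the Hoxd8 region at 9.71 ± 2.09 and the pair beside Evx2 at 9.60 ± 2.11 and 9.35 ± 1.77. Hoxb8 had 9.26 ± 2.69 and Hoxc10 had 9.09 ± 3.12. The lowest were Hoxd3 at 7.78 ± 2.27, Hoxd12 at 6.73 ± 1.99, the region 9.6 kb beyond Hoxa13 at 5.97 ± 1.97 and Hoxc5 at 5.73 ± 1.15. Neighbours in this order differed by less than the SD over libraries. That SD also holds list-wide differences, so it does not measure differences between regions, which were not tested. The Hoxd12 region fell outside the rule for named regions and was added after its values were seen. In every one of the 10 libraries the median fold of the 13 regions was above that of the genome's constant regions, from 6.58 against 5.41 in Ig2b wild type replicate 3 to 13.3 against 10.6 in dCas9 control replicate 2, with 8 to 11 of the 13 above the genome's median.

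**Figure D2:**
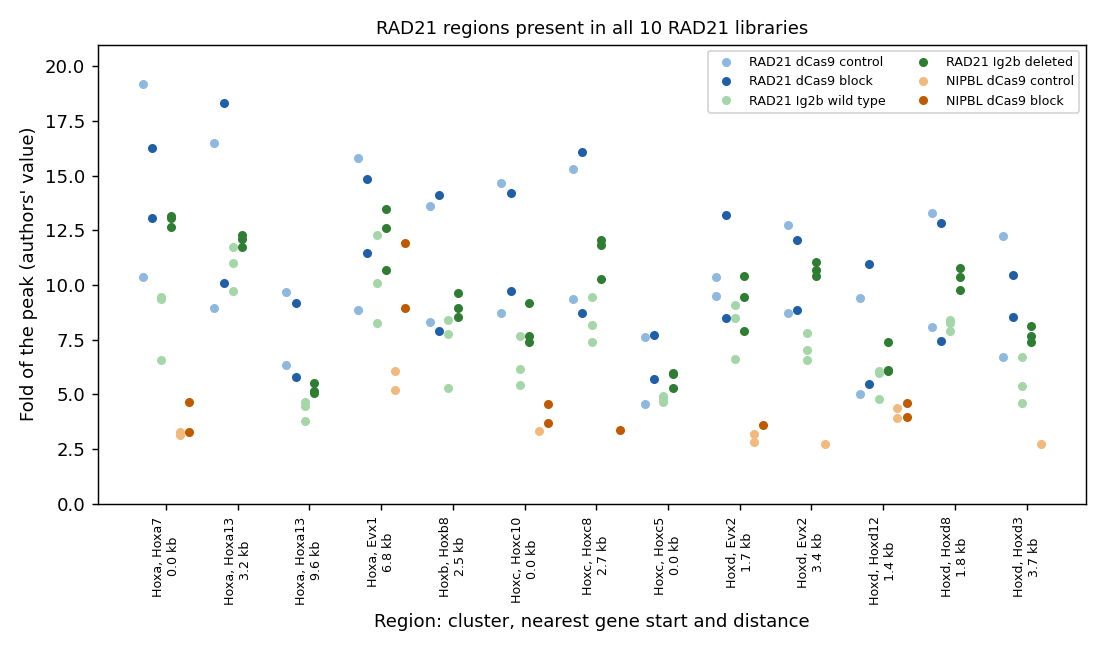
Fold of the peak (authors' value, linear axis) in each library at the 13 RAD21 regions present in all 10 RAD21 libraries, one point per library, coloured by group, with NIPBL points where a NIPBL peak overlaps. RAD21 points reach 19.2 at Hoxa7, and NIPBL points are highest, at 11.9, in the region near Evx1.

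Around the gene starts, RAD21 peaks were found at a limited set of Hox genes. A start here is the upstream end of the whole annotated gene. By these starts Hoxa3 lay between Hoxa6 and Hoxa7, and Hoxd3 between Hoxd8 and Hoxd4, out of the order of their numbers. In dCas9 control cells 16 of 39 had a peak within 5 kb in both libraries, 41.0% against 34.3% of all genes, and in block cells 15 of 39, 38.5% against 41.3%. In Ig2b wild type cells 11 of 39 had one in all 3 libraries, 28.2% against 27.4% of all genes, and in deleted cells 11 of 39, against 32.1%. These shares are near the background. Windows of neighbouring genes overlap, and only 26 of the 39 windows can be chosen without overlap, so these genes are not independent. All 10 RAD21 libraries had a peak at 11 Hox genes, against 23.4% of all genes: Hoxa7, Hoxa13, Hoxb8, Hoxc5, Hoxc8, Hoxc10, Hoxd3, Hoxd8, Hoxd9, Hoxd12 and Hoxd13. None of the 10 had one at 18 Hox genes, against 37.5% of all genes, among them Hoxa5, Hoxa9, Hoxb3, Hoxb9, Hoxc6, Hoxc9, Hoxd4 and Hoxd11. The remaining 10 had a peak in 1 to 7 libraries.

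Covered length within 5 kb showed how these genes varied. Hoxd13, the gene at the end of its cluster, had 717 and 1324 covered bp in the dCas9 control lists and 1014 and 1241 in the block lists. Its Ig2b wild type lists had 694, 737 and 413 bp, and its deleted lists 546, 955 and 483 bp. The groups overlapped in both comparisons, and Hoxd13 had the most covered bp of any Hox gene in 9 of the 10 lists. Hoxa13 had 686 and 866 bp in dCas9 control and 425 and 518 bp in block, where the block values were both lower. At Hoxa13 the wild type lists had 398, 311 and 353 bp and the deleted lists 615, 611 and 391 bp, overlapping at the low end. Hoxa7 had 438 and 389 bp in control, 379 and 632 bp in block, 485, 345 and 238 bp in wild type and 365, 369 and 286 bp in deleted cells, with overlap throughout.

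Hoxb8 had 560 and 545 bp in control, 615 and 455 bp in block, 285, 265 and 411 bp in wild type and 300, 304 and 256 bp in deleted cells. It was the only Hoxb gene with a RAD21 peak in every list. Hoxb4 and Hoxb6 had peaks in all 4 dCas9 lists, and in the Ig2b lists Hoxb4 had 27 bp in wild type replicate 1 only and Hoxb6 had 235 bp in deleted replicate 1 only. Hoxa3 and Hoxa6, which share a peak, had one in all 4 dCas9 lists, 2 of 3 wild type lists and 1 of 3 deleted lists. At Hoxc10 coverage was 534 and 504 bp in control, 485 and 538 bp in block, 343, 255 and 226 bp in wild type and 446, 433 and 206 bp in deleted cells. Hoxc8 and Hoxc5 ranged over the 10 lists from 252 to 563 bp and from 168 to 460 bp.

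**Figure D3:**
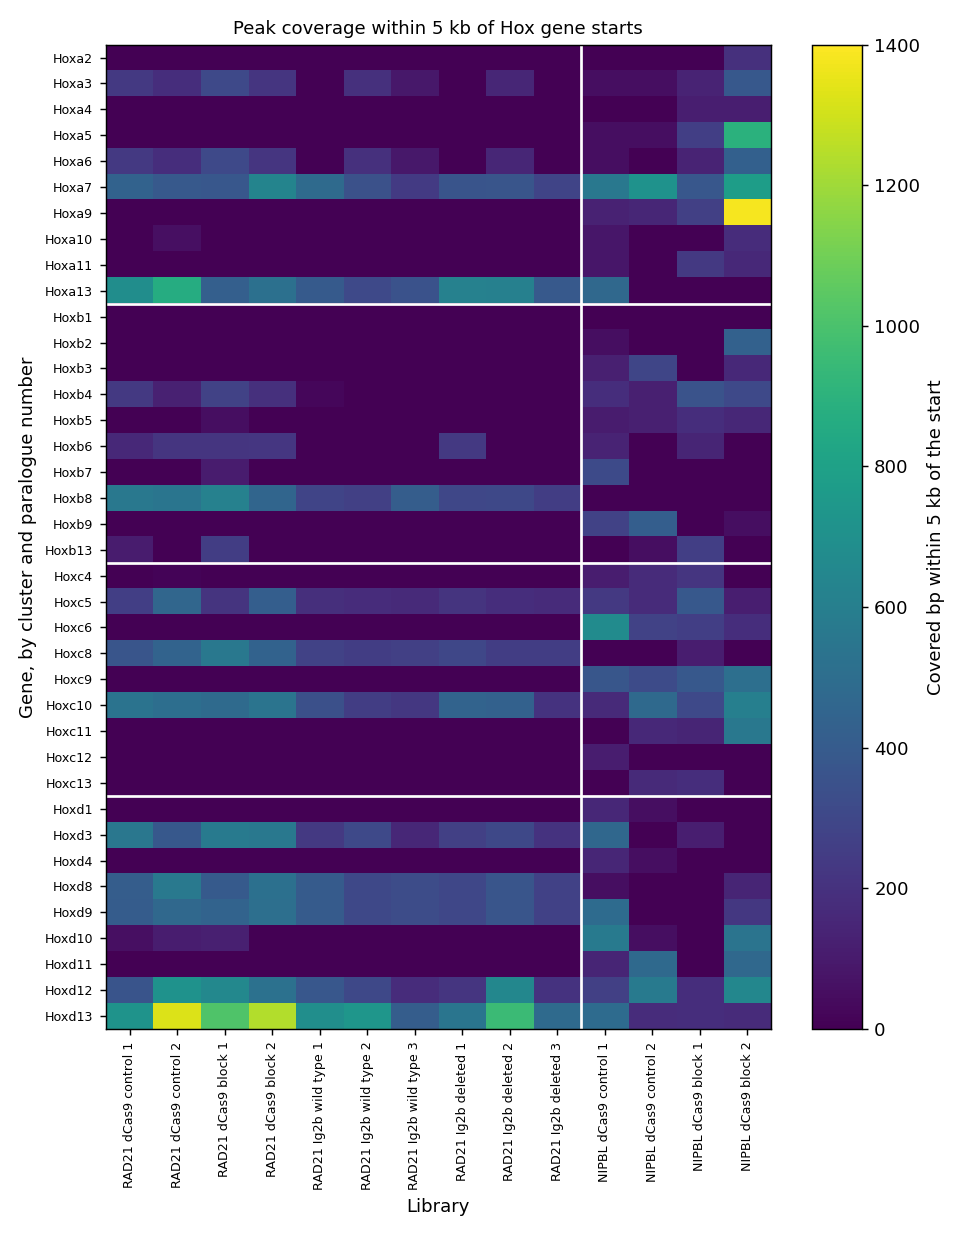
Covered bp within 5 kb of the start (colour) for 38 protein-coding Hox genes, ordered by cluster and paralogue number, in each of the 14 libraries; white lines separate clusters and the 2 proteins. Hoxd13 is brightest among RAD21 lists, up to 1324 bp, and Hoxa9 reaches 1379 bp in 1 NIPBL list.

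NIPBL peaks touched more Hox genes but less regularly. In control cells 19 of 39 had a peak within 5 kb in both libraries, 48.7% against 56.5% of all genes, and in block cells 16 of 39, 41.0% against 57.8%. All 4 NIPBL libraries had one at 12 Hox genes, 30.8% against 51.7% of all genes: Hoxa3, Hoxa5, Hoxa7, Hoxa9, Hoxb4, Hoxb5, Hoxc5, Hoxc6, Hoxc9, Hoxc10, Hoxd12 and Hoxd13. Hoxb8, with RAD21 in every list, had no NIPBL peak in any, and Hoxb1 had no peak of either protein. Hoxa7, Hoxc5, Hoxc10, Hoxd12 and Hoxd13 were covered in all 14 lists, 5 of 39 against 18.7% of all genes. Among genes covered in both control lists, the median fold was 3.03 at Hox genes and 4.45 at all genes for NIPBL. For RAD21 the same medians were 10.1 and 6.54. With only peaks of −log10 q of at least 3, the genes covered in both NIPBL lists fell to 2 in control and 2 in block cells.

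Of 170 NIPBL regions in the spans, 135 were in 1 library and 5 (2.94%) in all 4, against 9.95% of the genome's NIPBL regions. One of the 5 was near Evx1, with folds of 6.07 and 5.21 in control and 11.9 and 8.94 in block cells, and RAD21 in all 10 lists. Another covered Hoxa7, with folds of 3.26 and 3.16 in control and 4.64 and 3.28 in block cells, and the next lay between Hoxd13 and Hoxd12 with 4.40 and 3.93 against 4.62 and 3.98. Both of these also had RAD21 in all 10 lists. The 2 others lay in introns of Hoxc9 and Hoxc6, with mean folds of 3.73 and 3.21 and no RAD21 peak in any list. At Hoxc9 the 4 NIPBL lists covered 377, 321, 384 and 512 bp, and at Hoxc6 they covered 677, 276, 261 and 181 bp.

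The 2 proteins were compared in the dCas9 lists, which asks where called coverage of one exceeds that of the other and not which binds more. With limma on log2(covered bp + 500), 24.7% of 7692 genes passed an adjusted p of 0.05, 1598 with higher and 302 with lower NIPBL coverage (1888 and 1787 with quantile normalization). The median difference of all genes was 0.48, and 0.02 with quantile normalization. Only Hoxd13 and Hoxa7 had the mean of 500 covered bp needed to be tested. At Hoxd13 the NIPBL values of 488, 176, 183 and 172 bp were all below its RAD21 values, and a difference of -1.06 on the log2 scale (SE 0.25, adjusted p = 0.0216 by limma). It reached the filter only through its RAD21 lists, since no NIPBL value was as high as 500 bp, and a gene that passes in this way favours a lower NIPBL call. The call was lost when any 1 NIPBL library was left out, with limma adjusted p from 0.0804 to 0.126. Hoxa7 had a difference of 0.20 (SE 0.24, adjusted p = 0.558), and its NIPBL values of 560, 714, 380 and 781 bp overlapped those of RAD21.

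Without the filter on low coverage 28.5% of 18461 genes passed, 21.6% with higher and 6.89% with lower NIPBL coverage, and 9 of 38 Hox genes passed, 4 higher and 5 lower. These 9 were named after their values were seen, because the filter left so few Hox genes. Those with higher NIPBL coverage were Hoxc9 at 0.84 (SE 0.09), Hoxc6 at 0.73 (SE 0.15), Hoxb9 at 0.41 (SE 0.10) and Hoxb5 at 0.32 (SE 0.09), and all 4 had no RAD21 peak in at least 3 of the 4 dCas9 lists. NIPBL values at Hoxb9 were 278 and 419 bp in control but 0 and 51 bp in block, so its difference came mostly from the control lists. With the replicate number as a block Hoxb5 no longer passed (limma adjusted p = 0.069) and Hoxd3 did, with lower NIPBL coverage (0.0435). Those with lower NIPBL coverage were Hoxd13 at -1.06 (SE 0.19), Hoxb8 at -1.06 (SE 0.09), Hoxa13 at -0.91 (SE 0.22), Hoxc8 at -0.86 (SE 0.11) and Hoxd8 at -0.83 (SE 0.13), all covered in every RAD21 list. Limma adjusted p ran from 0.00147 at Hoxb8 to 0.0402 at Hoxb5. At Hoxb8 every NIPBL list had 0 bp, and at Hoxc9, Hoxc6 and Hoxb9 every RAD21 list had 0 bp. Values of 0 have no spread, so the SE and p there may be understated and describe called against not called. Each difference is on the log2(covered bp + 500) scale, which understates changes of small values.

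The dCas9 block was then compared with its control, to see whether coverage of the Hox clusters differed when the guide was present. For RAD21, limma called no gene of 5516 (0.0%), none of them had an unadjusted p under 0.05, and 6 Hox genes were among those tested. The largest Hox differences were Hoxa13 at -0.39 (SE 0.52), Hoxd3 at 0.14 (SE 0.52), Hoxd13 at 0.12 (SE 0.55) and Hoxd12 at 0.09 (SE 0.54), each with a limma adjusted p of 1.0. Within replicate numbers 1 and 2 the differences were -0.36 and -0.42 at Hoxa13, 0.02 and 0.26 at Hoxd3, 0.32 and -0.07 at Hoxd13, and 0.42 and -0.25 at Hoxd12. Hoxa13 and Hoxd3 thus had 1 sign in both numbers, and Hoxd13 and Hoxd12 did not. With the replicate number as a block, limma gave 125 of the 5516 genes an unadjusted p under 0.05, no Hox gene among them, and called none. The median over the 6 was 0.04, against 0.11 over all genes tested. No Hox gene gained a peak (0.356% of all genes) or lost one (0.0946%). One region was gained of 34 (1.15% of the genome's regions) and none lost (0.278%). It lay between the pair beside Evx2, 5.1 kb from Hoxd13, with 227 and 305 bp and folds of 3.57 and 3.51 in block cells and no peak in control cells. At the 13 constant regions, block folds were above control without overlap at 0 (1.72% of the genome's constant regions) and below at 0 (2.19%), and the median ratio of block to control was 1.005, against 0.991 over the genome's. Replicate 2 folds were above replicate 1 folds at all 13 regions in both groups, which leaves little room for groups without overlap. Within the numbers, block folds were above control in both at 3 regions (24.5% of the genome's) and below in both at 2 (25.6%). The median ratio was 1.09 in number 1 and 0.969 in number 2, against 1.02 and 0.971 over the genome's.

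For NIPBL in the same comparison limma called no gene of 9148 (0.0%), with 1306 at an unadjusted p under 0.05, and Hoxa7, the only Hox gene tested, differed by -0.10 (SE 0.22, limma adjusted p = 0.835). Hoxa4 gained a peak (1.54% of all genes gained one), with 117 and 116 bp in block and 0 in both control lists. Hoxd4 and Hoxd1 lost one (1.17%), from 152 and 51 bp and from 158 and 51 bp. The shortest peak of each list was 51 bp, so these losses lay near the floor of what was called. Among the 170 regions 4 were gained (2.48%) and 5 lost (1.65%). Gained regions lay beside the starts of Hoxa5 and Hoxa9, 9674 bp from Hoxb9 and 10994 bp from Hoxd4. Lost regions lay near Hoxb9, Hoxd11, Hoxd4, Hoxa7 and Ttll6, the last a gene beside Hoxb. The folds of gained and lost regions were all between 2.73 and 3.95.

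Coverage of whole clusters followed the same picture. RAD21 covered 0.952% of the 4 spans in control and 1.05% in block lists, without overlap (exact permutation p = 0.33, two-sided, the smallest that 2 against 2 allows). The difference was 0.197 percentage points within replicate number 1 and 0.0068 within number 2, and it turned to -0.096 in the ratio to genome coverage. It was 0.0415 without control replicate 1, 0.163 without control replicate 2 and 0.0674 without block replicate 1. The groups overlapped without flanks, with only peaks of −log10 q of at least 3, and with lists matched in length. NIPBL covered 0.807% and 1.05% in control and 0.843% and 1.38% in block lists, overlapping (exact permutation p = 0.667), and the difference turned to -0.0853 percentage points without block replicate 2. It was 0.456 without block replicate 1, 0.307 without control replicate 1 and 0.0641 without control replicate 2, against 0.185 with all 4 lists. With only peaks of −log10 q of at least 3, NIPBL covered a mean of 0.0753% in control and 0.117% in block lists, overlapping. Most of the NIPBL coverage of the spans thus came from peaks below that threshold.

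Among the clusters, NIPBL coverage of Hoxa was 0.892% and 0.735% in control and 1.29% and 2.42% in block lists, without overlap (exact permutation p = 0.33, adjusted over 12 comparisons 0.8). Relative to genome coverage the same lists stood at 1.05 and 0.896 in control and 1.67 and 2.14 in block cells. Shares of single clusters were not computed with only peaks of −log10 q of at least 3. Hoxa9 had 133 and 152 bp in control and 264 and 1379 bp in block, and Hoxa5 had 51 and 51 bp against 259 and 894 bp. Both windows are part of the Hoxa span, so they are not separate from its share. Hoxa7, at 560 and 714 bp against 380 and 781 bp, overlapped, and Hoxa13 had 473 and 0 bp in control and 0 in both block lists. The highest of these values came from block replicate 2, whose list was the longest of all with 123573 peaks, and the part of list length in the result was not tested. At Hoxd the NIPBL lists ran the other way in their means, 1.44% in control and 0.936% in block, and overlapped, whereas the ratios to genome coverage, 2.29 and 1.13 against 0.825 and 1.09, did not.

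The Ig2b deletion was compared with wild type in the same manner. Limma called no gene of 2613 (0.0%), with 294 at an unadjusted p under 0.05, and Hoxd13, the only Hox gene tested, differed by 0.05 (SE 0.23, limma adjusted p = 0.897) and by -0.34 with quantile normalization. No Hox gene gained (0.675%) or lost (0.0225%) a peak, and of 21 regions in the spans none was gained (0.931%) or lost (0.191%). RAD21 covered 0.461% of the spans in wild type and 0.566% in deleted lists, overlapping (exact permutation p = 0.3), and the ratio to genome coverage differed by -0.0501. The difference of 0.105 percentage points became 0.0465 without deleted replicate 2 and 0.169, without overlap, without deleted replicate 3. Hoxb was covered at 0.199%, 0.147% and 0.187% in wild type and 0.305%, 0.219% and 0.20% in deleted lists, without overlap (exact permutation p = 0.1, the smallest that 3 against 3 allows, adjusted 0.8), but with overlap in the ratio to genome coverage.

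Peak folds at the 13 constant regions were higher in the deleted lists at 9 regions without overlap, where 38.2% of the genome's constant regions were, and lower at 0, where 0.78% were. The ratio of deleted to wild type means had a median of 1.26 at the 13 regions and 1.16 over the 25633. At Hoxd3 the folds were 5.37, 6.69 and 4.59 in wild type and 8.13, 7.66 and 7.39 in deleted lists, and at Hoxa7 they were 9.37, 9.47 and 6.58 against 13.1, 13.1 and 12.7. No common scale was set between lists, so the ratio holds list-wide differences as well.

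**Figure D4:**
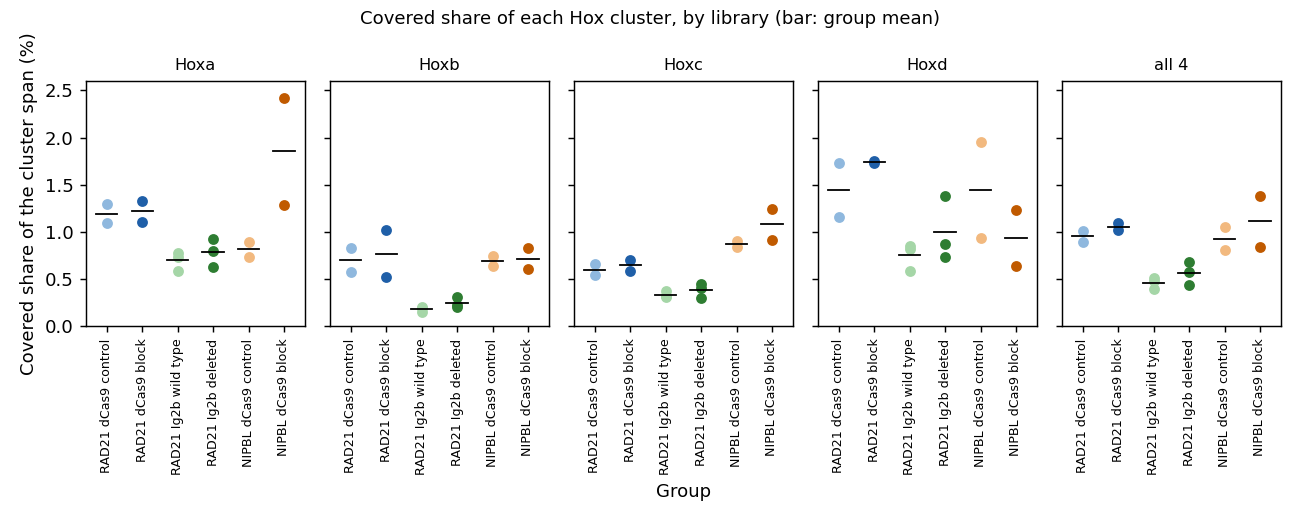
Covered share in percent of each cluster span, first to last gene plus 50 kb on each side, and of all 4 together; points are libraries, bars are group means. NIPBL block lists reach 1.29% and 2.42% at Hoxa, and the RAD21 Ig2b lists lie between 0.147% and 0.305% at Hoxb.

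The other lists of the pathway were counted the same way, beside 23.4% of all genes with RAD21 in all 10 lists and 51.7% with NIPBL in all 4. Among 9 TALE cofactors, the Meis, Pbx and Pknox homeodomain partners of HOX proteins, none had a RAD21 peak in all 10 lists and 6 had a NIPBL peak in all 4. Of 16 Polycomb genes, whose products repress Hox genes, 5 and 14 did, with Cbx6 at a mean RAD21 fold of 10.5 in control. Of 12 Trithorax and MLL complex genes, whose products keep Hox genes active, 7 and 9 did, with Dpy30 at 15.7 and no NIPBL peak in any list. Of 6 Cdx and ParaHox genes only Cdx1 had RAD21 in all 10 lists, and 3 had NIPBL in all 4. Of 18 matched genes at the borders of the clusters 2 and 12 did, and Evx2, beside Hoxd13, had a mean RAD21 fold of 11.1 in control. Hibadh, beyond Hoxa, was the other, with 5.53. Of 6 matched microRNA genes in the clusters, Mir615, near Hoxc5, had RAD21 in all 10 lists.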

How the data were processed

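ChIP-seq peak lists of 14 libraries were analysed, and 4 inputs were not used here. The submitters' processing notes name the mm9 build, SAMtools 1.8, Bowtie2 2.2.8 and MACS2, with no role or MACS2 version, and each list belongs to 1 library. The deposited lists give each peak's fold enrichment ratio and −log10 p and −log10 q as the authors made them, and the deposited score column was not used.

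Coordinates were read on mm9 with its GENCODE annotation. Covered bp, the union of a library's peaks, was counted within 5 kb of each gene start and tested with limma 3.58.1 in R 4.3.3 on log2(covered bp + 500), for genes with a mean of at least 500 bp, two-sided, Benjamini-Hochberg over all genes tested. Covered shares of the clusters were compared with exact permutation tests. Other steps used matplotlib 3.10.9, pandas 2.3.3 and numpy 2.4.6 under Python 3.11.15, with scipy 1.17.1. The limma step was tested on simulated data with independent noise and no shared effect of replicate number, so that test does not cover such an effect. Read depth is unknown.

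The members, lists and tests were chosen with earlier results of these data known. Named genes were up to 4 per cluster by number of libraries and fold, and up to 4 per comparison by log2 difference. Named regions were those in the most libraries. Comparison with protein-coding genes only, the fold counts at constant regions, values within replicate numbers and a CTCF-type matrix were added after the data were seen. The matrix was built in 3 versions, each after the result of the one before on the 13 constant regions had been seen, and all 3 are given under the dependence on processing. 1 member gene, included in the counts, and 1 sequence are not reported here.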

Additional observations from a re-analysis of the deposited data

How the results depend on the processing

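With 2 or 3 libraries a group and unknown depth, small differences were not detectable, and no exact test could reach 0.05. Constant RAD21 regions numbered 13, 12 with only peaks of −log10 q of at least 3, and 13 to 14 leaving out each library. Constant NIPBL regions fell from 5 to 2 at that threshold and were 6 to 7 leaving out each library.

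Hox genes covered in every library within 2 kb of the start were 7 in RAD21 control, 7 in RAD21 block, 4 in Ig2b wild type, 4 in deleted, 7 in NIPBL control and 12 in NIPBL block lists, which turns the order of the last 2. NIPBL control and block counts were 2 and 2 at −log10 q of at least 3, and 5 and 6 with at least 200 bp covered. Leaving out a library gave 22 to 31 for NIPBL control, the latter without replicate 2, and 22 to 25 for NIPBL block, the latter without replicate 1.

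Genes called for NIPBL block rose from 0 to 35, and for Ig2b from 0 to 28, at −log10 q of at least 3, with no Hox gene called. For RAD21 block, no filter with the replicate block called 1. The 1900 genes called between the proteins became 1260 with 100 bp added, 5264 with no filter, 3675 with quantile normalization and 5358 with no filter and the replicate block. Leaving out a library gave 106 to 4192: 181 and 427 without NIPBL control replicates 1 and 2, 244 and 106 without NIPBL block replicates 1 and 2, and 4192 without RAD21 control replicate 2. The replicate block called 2331 genes between the proteins and 0 in the other 3 comparisons, and exact permutation p of the shares was 0.5, 1.0 and 0.25. Deviations of same-numbered libraries correlated at 0.767 for RAD21 dCas9, -0.06 for NIPBL, and 0.024, 0.176 and 0.212 for Ig2b, and no label ties the numbers. The RAD21 dCas9 peak names also differed in style between the numbers. With only 2 pairs and no such label the main fit stayed unpaired, so its SE holds differences between the numbers.

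Relative to the genome, the covered share differed by -0.0961 for RAD21 block and -0.0501 for Ig2b. In percentage points of covered share, the NIPBL difference ran from -0.0853 without block replicate 2 to 0.456 without block replicate 1. Quantile normalization moved the median of all genes from 0.11 to -0.01, 0.17 to -0.03 and 0.37 to -0.02 in the RAD21 block, NIPBL block and Ig2b comparisons. The Hoxd13 difference between the proteins was -1.20, -0.93, -1.07 and -1.06 without each NIPBL library in turn, and no longer passed. The cause of these changes was not tested.

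Of the 4 core motifs in constant RAD21 regions, the stricter core kept 0. The CTCF-type matrix was first refined from the core in 5 rounds, where 42.3% of the genome's constant regions and 2 of 13 in the clusters passed a threshold that 5.0% of shifted windows pass. Before the first round that share of the genome's regions was 27.0%. A second version of 10 rounds from the same start gave 15.4% and 0 of 13. The last, from 5202 exact matches of the stricter core, gave 57.0% and 3 of 13. Those matches came from the genome's constant regions themselves, 19.9% of which held one, and 0 lay in those of the clusters. Its best match held the printed core in the Hoxa7 and Hoxb8 regions and lay elsewhere in the Hoxd12 and Hoxd3 regions. The count in the clusters thus rested on the version, and all 3 gave a smaller share there than in the genome.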

Other observations

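The strand of the best matrix match in each of the 13 constant RAD21 regions was looked at after its values were seen, and only 3 of the 13 passed the threshold in the last version. All 3 stood on the strand of the Hox genes and 0 stood opposite, so every opposite match in that version was below the threshold. In that version and in the first, the best match stood opposite to the Hox genes in 6 of 6 regions whose nearest Hox start is Hoxa13, Hoxd13 or Hoxd12, and on their strand in 7 of 7 others. In the second version these counts were 3 of 6 and 5 of 7. The core motif itself stood opposite in 1 site, at Hoxd12, and on the strand of the Hox genes in 3. No test was made of this pattern.

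The antisense genes Hoxa11as and Hoxb3os had few peaks. Hoxa11as had RAD21 coverage in 1 list, dCas9 control replicate 2 with 60 bp, and NIPBL coverage in 3 lists with 83, 234 and 339 bp. Hoxb3os had NIPBL coverage of 51 and 437 bp in 2 lists and no RAD21 peak.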
